A study of Mus musculus with 18 samples.

Results

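The genes described here are 47 genes of the skeletal muscle fibre, the contractile cell of limb muscle, read in bulk RNA from mouse melanoma tumours grown in the hindlimb. They were chosen by name: each gene symbol on a list of sarcomere, calcium-handling and energy genes was matched to its Ensembl gene ID, and all 47 matched 1 ID each among the 37620 IDs counted. The list was drawn up with results of these libraries in view, among them rises of muscle genes in the IFN-alpha-pMC groups, so the levels and counts of calls below describe the genes and are no independent evidence for a change. Of the 47 genes, 45 passed the filter on low counts and were tested. The exceptions, Tnnc2 and Tnnc1, are described with the troponins.

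The tumours were MO4, a B16F10 melanoma line that carries ovalbumin, grown in C57BL/6 mice from 100000 cells set under the skin of the left and of the right hindlimb on day 0. Cells of induced pluripotent stem cell origin (labelled iPSC-pMC, here pMC), or such cells labelled IFN-alpha (IFN-alpha-pMC), were given beside the right tumour only, 1000000 at a time, on days 5, 6 and 7. Control tumours had no treatment, and no sham injection is named. RNA was taken on day 11 from right tumours (the injected side) and left tumours (the distant side), with 3 libraries in each of the 6 groups. Libraries are named by side, treatment and the number in their title, and values are listed in the order of libraries 1, 2 and 3. The labels do not say that libraries of a group came from separate mice, and the p-values then cover only a spread among samples that may be technical. Levels are CPM, counts per 1000000 after scaling of library sizes, and differences are log2 fold changes ± SE.

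Skeletal muscle contracts when myosin of the thick filament pulls on actin of the thin filament within a repeating unit, the sarcomere, which is bounded by Z discs. Calcium released from the sarcoplasmic reticulum at the triad, where that store meets the surface membrane, binds troponin on the thin filament and allows the pull, and a pump then returns the calcium to the store. Fast fibres and slow fibres build these parts from different members of the same gene families, and glycogen breakdown, creatine kinase and glycolysis supply the fast ones with energy. The muscles of the mouse hindlimb are mostly of fast fibres, and melanoma cells are not known to build sarcomeres.

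The control regions of these genes are shown for 7 members that carry the results below: the most abundant actin, fast myosin heavy and light chain, the creatine kinase, the calsequestrin, and a pair of slow troponins for comparison. Each sequence is the 250 bases before the gene's start in RefSeq on build GRCm38.p6, read 5′ to 3′ on the gene's strand, with motifs in capitals. The motifs searched on both strands were the E-box CAGCTG bound by MyoD family factors, the MEF2 site, the CArG box of serum response factor, and CATTCC, the core bound by TEAD factors. No 2 of these motifs overlapped in the sequences shown.
Myh4, chr11:67237562-67237811, plus strand: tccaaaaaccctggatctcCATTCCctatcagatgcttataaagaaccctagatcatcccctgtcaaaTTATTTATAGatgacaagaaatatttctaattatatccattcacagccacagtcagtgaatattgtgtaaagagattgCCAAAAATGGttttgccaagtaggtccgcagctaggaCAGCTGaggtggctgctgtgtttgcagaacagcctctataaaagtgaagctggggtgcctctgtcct
Acta1, chr8:123894776-123895025, minus strand: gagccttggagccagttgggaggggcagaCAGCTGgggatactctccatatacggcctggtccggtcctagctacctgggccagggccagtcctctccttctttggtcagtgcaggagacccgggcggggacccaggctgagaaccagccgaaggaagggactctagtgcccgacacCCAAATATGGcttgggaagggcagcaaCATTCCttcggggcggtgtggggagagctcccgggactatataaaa
Mylpf, chr7:127211358-127211607, plus strand: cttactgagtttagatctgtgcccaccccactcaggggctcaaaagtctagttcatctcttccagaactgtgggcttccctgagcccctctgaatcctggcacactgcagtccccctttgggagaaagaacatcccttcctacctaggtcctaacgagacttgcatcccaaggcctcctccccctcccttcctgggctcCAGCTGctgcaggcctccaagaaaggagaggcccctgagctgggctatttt
Ckm, chr7:19410844-19411093, plus strand: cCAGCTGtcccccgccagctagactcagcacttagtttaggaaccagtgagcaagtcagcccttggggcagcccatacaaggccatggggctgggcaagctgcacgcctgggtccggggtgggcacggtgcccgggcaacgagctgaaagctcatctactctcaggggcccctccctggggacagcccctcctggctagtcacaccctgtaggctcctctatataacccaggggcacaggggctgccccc
Casq1, chr1:172219896-172220145, minus strand: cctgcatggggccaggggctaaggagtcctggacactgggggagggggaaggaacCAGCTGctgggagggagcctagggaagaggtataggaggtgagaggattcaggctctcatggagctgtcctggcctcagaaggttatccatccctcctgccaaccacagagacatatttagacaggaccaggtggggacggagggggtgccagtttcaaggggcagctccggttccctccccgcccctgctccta
Tnni1, chr1:135799171-135799420, plus strand: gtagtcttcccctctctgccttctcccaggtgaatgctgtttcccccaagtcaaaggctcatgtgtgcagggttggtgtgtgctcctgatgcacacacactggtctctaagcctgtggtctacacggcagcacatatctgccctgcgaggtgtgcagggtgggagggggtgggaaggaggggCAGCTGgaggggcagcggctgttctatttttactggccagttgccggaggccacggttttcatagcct
Tnnt1, chr7:4515976-4516225, minus strand: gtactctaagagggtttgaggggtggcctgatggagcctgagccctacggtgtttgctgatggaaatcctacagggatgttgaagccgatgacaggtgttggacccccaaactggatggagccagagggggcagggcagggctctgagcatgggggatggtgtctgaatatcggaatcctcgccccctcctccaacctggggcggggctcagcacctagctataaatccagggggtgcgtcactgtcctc
The Myh4 window held all 4 motifs. Acta1 held the E-box, the CArG box and the TEAD core, with the CArG box starting 73 bases and the core 46 bases before the start site. Mylpf, Ckm, Casq1 and Tnni1 held the E-box alone, and Tnnt1 held none of the 4 in this window. The table used here had 40 promoters of 33 of the 47 genes. The E-box stood in 18 of those 40 (45%), against 13% of all 32851 promoters of the same length. The MEF2 motif stood in 8 (20% against 2.92%), the CArG box in 6 (15% against 1.47%) and the TEAD core in 9 (22.5% against 12.6%). A match is a run of letters, not a bound site.

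Library totals ran from 14346091 to 23430259 counts, so that a count of 0 allows up to 0.128 to 0.209 CPM. The defining genes of the labelled tissue were present: 5 pigment cell genes together gave 26770 to 41459 CPM in the 18 libraries. Left IFN-alpha-pMC 1, right control 3 and right IFN-alpha-pMC 3 were taken as libraries that stood apart from their groups over all genes. This choice was fixed by name, and no measure or cutoff for it is given here. Counts of calls that rest on them are given with and without them. Read pairs in no annotated gene made up 4.04 to 6.12% of pairs in the IFN-alpha-pMC libraries and 6.87 to 12.21% in all others. Their part in the results was not tested.

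Together the 47 genes took the largest share of counts in the tumours beside which IFN-alpha-pMC were injected. The share was 0.0568, 0.0080 and 0.0117% in left controls and 0.1563, 0.0103 and 0.0300% in right controls. With pMC it was 0.0076, 0.0240 and 0.0186% on the left and 0.0174, 0.0386 and 0.0260% on the right. With IFN-alpha-pMC it was 0.1674, 0.1622 and 0.1059% on the left and 0.2733, 0.3381 and 0.6122% on the right. All 3 right IFN-alpha-pMC libraries lay above the other 15. Left IFN-alpha-pMC libraries lay above all left libraries of the other treatments, and right control 1 fell within their range. The group means were 0.4079 ± 0.1799% (SD, n = 3) for right and 0.1452 ± 0.0341% for left IFN-alpha-pMC, against 0.0655 ± 0.0792% and 0.0255 ± 0.0272% in right and left controls and 0.0273 ± 0.0107% and 0.0167 ± 0.0084% with pMC. In both control groups the SD exceeded the mean, with library 1 far above libraries 2 and 3. Wilson 95% intervals of the single shares were at most 6.3% of the value to each side and cover counting error only. In bulk RNA, fewer muscle fibres in a sample and less muscle RNA per fibre cannot be told apart, and neither can muscle tissue next to a tumour and fibres within it.

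**Figure D1:**
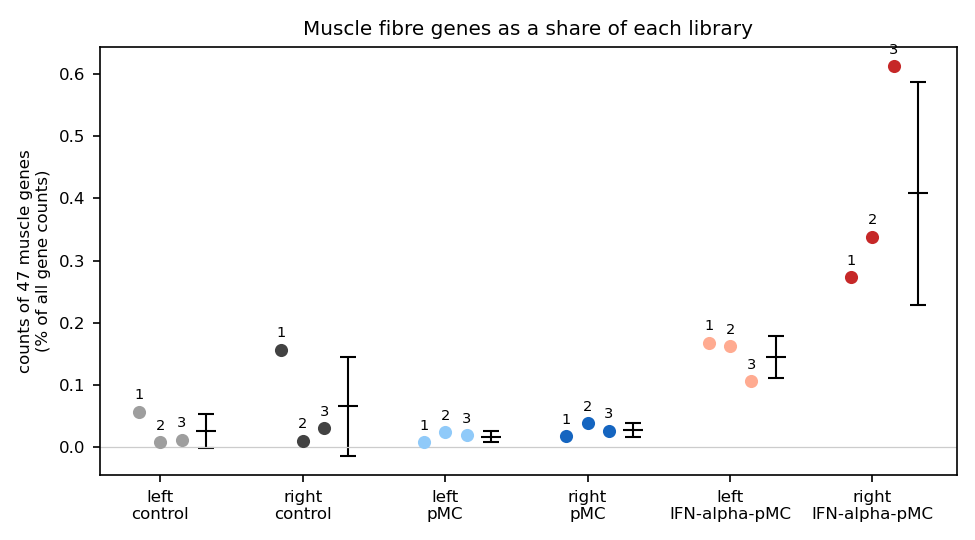
Summed counts of the 47 muscle fibre genes as a percent of all gene counts, 1 point per library with its number, and beside them the mean with SD (n = 3) of each of the 6 groups. The right IFN-alpha-pMC libraries (0.2733 to 0.6122%) sit above all others, and right control 1 (0.1563%) stands apart from right controls 2 and 3.

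**Figure D2:**
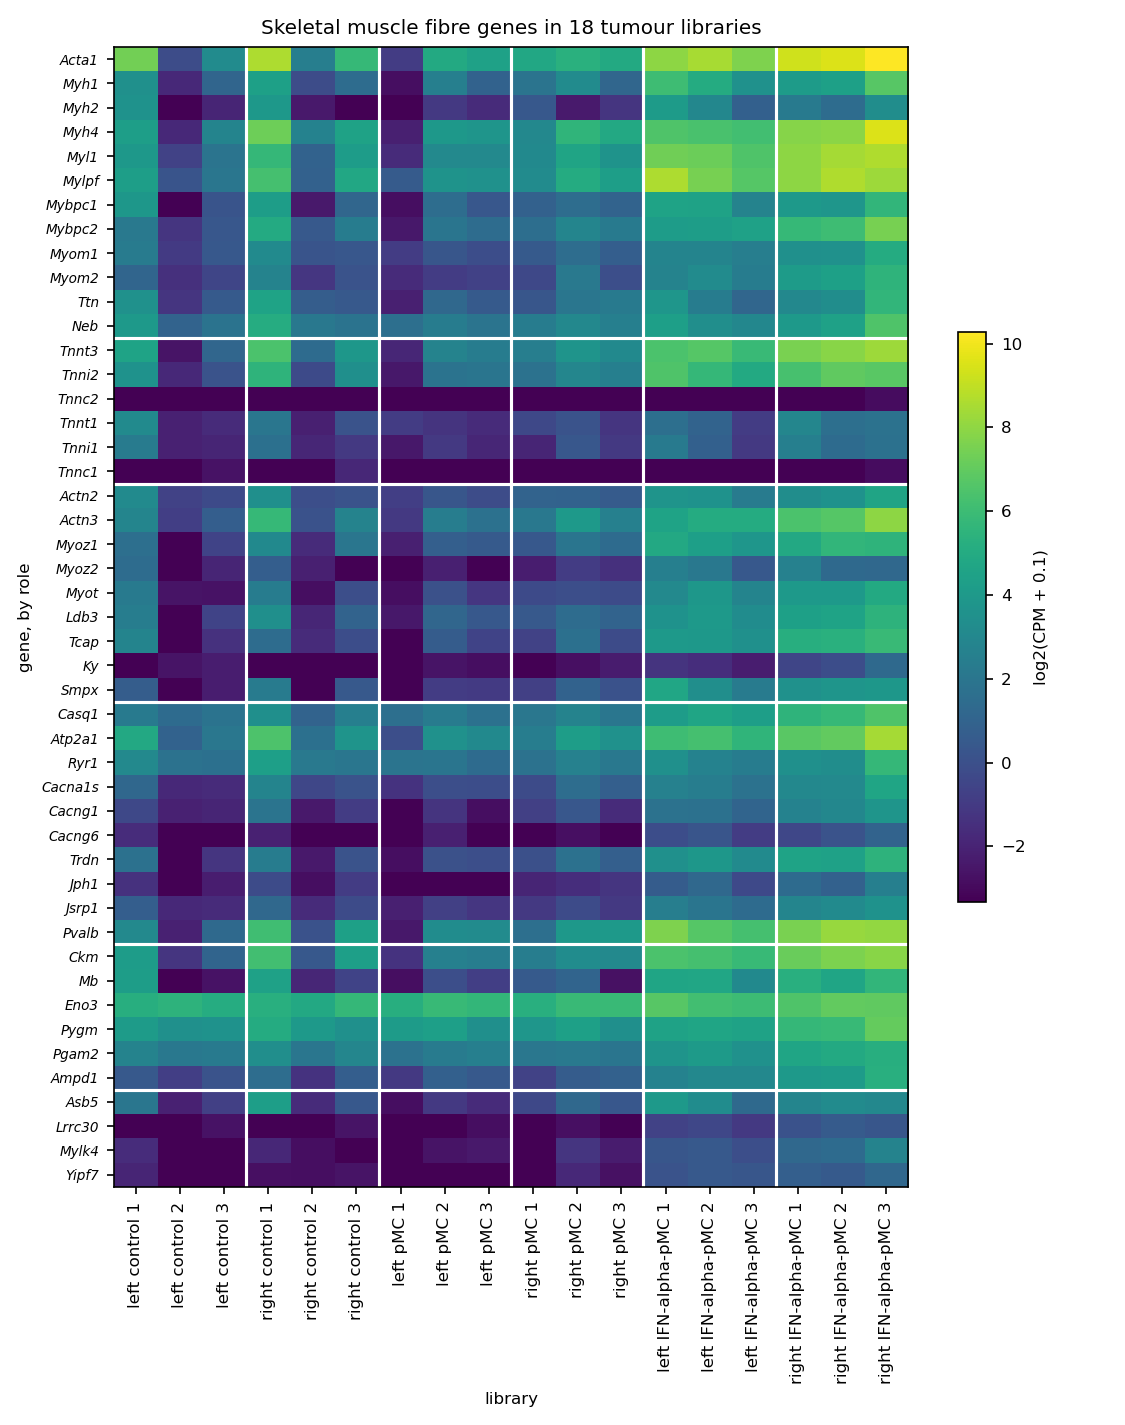
Level of each of the 47 genes in each of the 18 libraries as log2(CPM + 0.1), with genes in rows grouped by role (filaments, troponins, Z disc, triad and calcium, metabolism and oxygen, others) and libraries in columns grouped by side and treatment. Most rows are brightest in the 3 right IFN-alpha-pMC columns, and the first column of each control group is brighter than its neighbours; the rows of Tnnc2 and Tnnc1 are dark throughout and that of Eno3 is bright throughout.

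A few genes held most of the counts pooled over the 18 libraries, to which right IFN-alpha-pMC 3 gave the most (143451). Of the pooled counts of the 47 genes Acta1 held 20.8%, Myh4 9.2%, Mylpf 8.3%, Myl1 7.5%, Pvalb 5.9% and Tnnt3 5.6%. This order did not hold in the 2 libraries with the lowest shares. In left control 2 Eno3 gave 659 of 1146 counts, Pygm 168 and Acta1 12. In left pMC 1 Eno3 gave 870 of 1747, Pygm 405 and Acta1 10. The shares of these libraries thus rested mostly on Eno3 and Pygm. Per kilobase of exon, the order of mean levels in right IFN-alpha-pMC tumours was Acta1 (570 CPM per kb), Mylpf (302), Pvalb (239), Myl1 (161), Tnnt3 (153), Tnni2 (69.9), Myh4 (67.8), Eno3 (66.0), Ckm (64.6) and Atp2a1 (56.1). The last 5 of these lay between 56.1 and 69.9, a range narrower than the spread of Myh4 alone between the 3 libraries (SD 299 CPM on a mean of 408 CPM, before division by length). In left IFN-alpha-pMC the order began with Mylpf (212 CPM per kb), Acta1 (175) and Pvalb (123). In both pMC groups Eno3 was first (27.8 on the left and 29.9 on the right), ahead of Acta1.

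Genes of the thin and thick filaments were read in every IFN-alpha-pMC library. Acta1, the actin of the skeletal thin filament, was at 164, 0.805 and 9.48 CPM in left and 387, 5.5 and 54.3 CPM in right controls. The pMC libraries gave 0.43, 30.8 and 22.1 CPM on the left and 28.1, 39.8 and 30.7 CPM on the right. The IFN-alpha-pMC libraries gave 248, 356 and 203 CPM on the left and 637, 748 and 1239.9 CPM on the right. The right IFN-alpha-pMC libraries did not overlap any other group, and the left ones lay above all left libraries of the other treatments. Against right controls the difference was 2.55 ± 1.4 (adjusted p = 0.288) and against right pMC 4.73 ± 1.55 (adjusted p = 0.0653), by edgeR's quasi-likelihood test as for all p-values of genes below. Neither passed 0.05, with SEs over 1 log2 unit.

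Myh4, the heavy chain of the fastest (type IIB) fibres, was at 19.5, 0.201 and 6.86 CPM in left and 153, 6.5 and 23.1 CPM in right controls and at 0.129, 14.9 and 13.4 CPM in left and 8.13, 47.4 and 29.4 CPM in right pMC. In IFN-alpha-pMC tumours Myh4 was at 90.9, 83.2 and 72.4 CPM on the left and 227, 244 and 753 CPM on the right. It stood highest in right IFN-alpha-pMC 3, and right control 1 exceeded every left library. Its difference from right controls was 2.74 ± 1.21 (adjusted p = 0.172). Myh1, the heavy chain of type IIX fibres, was at 11.2, 0.201 and 2.06 CPM in left and 21, 0.785 and 2.75 CPM in right controls. On the left it was at 0.043, 5.65 and 1.83 CPM with pMC and 66.8, 33.2 and 11.8 CPM with IFN-alpha-pMC. On the right, Myh1 was at 3.71, 9.5 and 2.14 CPM with pMC and 17.7, 21 and 106 CPM with IFN-alpha-pMC. Its right IFN-alpha-pMC range overlapped that of right controls, where library 1 was at 21 CPM. Myh2, the heavy chain of type IIA fibres, was at 11.9, 0 and 0.167 CPM in left and 15.2, 0.087 and 0 CPM in right controls. With pMC it was at 0, 0.377 and 0.218 CPM on the left and 1.22, 0.096 and 0.321 CPM on the right, and with IFN-alpha-pMC at 17.8, 7.82 and 1.69 CPM on the left and 4.7, 2.69 and 10.1 CPM on the right. This gene had the smallest difference from right controls of the 45, 0.2 ± 1.44 (adjusted p = 0.96), and its level in right control 1 was above that in all 3 right IFN-alpha-pMC libraries.

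The fast light chains did pass the test in several comparisons. Mylpf, the regulatory light chain of fast myosin, was at 19.4, 1.07 and 3.9 CPM in left and 77.8, 1.75 and 28.3 CPM in right controls. The pMC libraries gave 1.38, 12.4 and 11.7 CPM on the left and 9.46, 32.3 and 19.9 CPM on the right. The IFN-alpha-pMC libraries gave 393, 178 and 104 CPM on the left and 252, 401 and 311 CPM on the right. All 6 IFN-alpha-pMC libraries were above the other 12, and the left and right ones overlapped, left IFN-alpha-pMC 1 being a library that stood apart. It was higher in left IFN-alpha-pMC than in left control (4.78 ± 1.15, adjusted p = 0.0314) and left pMC (4.73 ± 1.15, adjusted p = 0.0351) and than pMC on the right (3.96 ± 1.1, adjusted p = 0.0278), while against right controls the value was 3.16 ± 1.06 (adjusted p = 0.0679). Myl1, the essential light chain of fast myosin, rose from 53.7, 1.83 and 18.3 CPM in right controls to 252, 349 and 401 CPM (3.76 ± 1.08, adjusted p = 0.0322) and from 15, 0.537 and 3.62 to 162, 152 and 91.4 CPM on the left (4.39 ± 1.13, adjusted p = 0.0385).

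The genes of the giant sarcomere proteins passed in no comparison. Ttn encodes titin, the spring that spans from Z disc to the middle of the sarcomere, and was at 11.5, 0.336 and 1.34 CPM in left and 23.7, 1.48 and 1.31 CPM in right controls and at 0.129, 2.32 and 1.35 CPM in left and 1.16, 3.98 and 4.82 CPM in right pMC. In IFN-alpha-pMC tumours Ttn was at 14, 5.06 and 2.17 CPM on the left and 8.1, 10.1 and 49.6 CPM on the right. Right IFN-alpha-pMC 3 was 5.47 times the mean of the other libraries of its group, and right control 1 lay above right IFN-alpha-pMC 1 and 2. The difference from right controls was 1.35 ± 1.15 (adjusted p = 0.545), and it turned to -0.52 without the 3 libraries that stood apart. Nebulin, the ruler of the thin filament encoded by Neb, was at 1.65 ± 0.84 (adjusted p = 0.246). Of the M band and myosin-binding genes, Myom2 rose against right controls (3.38 ± 0.84, adjusted p = 0.014), while Mybpc1, Mybpc2 and Myom1 stood at 1.92 ± 1.24, 2.99 ± 0.94 and 2.33 ± 0.76 and did not pass.

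The troponins form the calcium switch on the thin filament, each fibre type with its own T, I and C subunit. Tnni2, the fast inhibitory subunit, was at 12.1, 0.201 and 1 CPM in left and 45.5, 0.742 and 10.9 CPM in right controls. On the left it was at 0.086, 3.51 and 3.84 CPM with pMC and 91.6, 53.8 and 30.8 CPM with IFN-alpha-pMC. On the right, Tnni2 was at 3.37, 7.34 and 5.73 CPM with pMC and 78.9, 124 and 110.5 CPM with IFN-alpha-pMC. The 6 IFN-alpha-pMC libraries of the 2 sides overlapped, and the left ones lay above all left libraries of the other treatments. Tnnt3, the fast tropomyosin-binding subunit, rose from 5.53, 13 and 8.72 CPM in right pMC to 183, 228 and 315 CPM in right IFN-alpha-pMC (4.73 ± 1.28, adjusted p = 0.0243). Tnni2 was 4.25 ± 1.2 in the same comparison (adjusted p = 0.03).

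Slow troponins were read at a few CPM. Tnnt1, the slow T subunit, was at 8.92, 0.134 and 0.223 CPM in left and 3.98, 0.131 and 1 CPM in right controls. With pMC it was at 0.43, 0.314 and 0.218 CPM on the left and 0.664, 1.01 and 0.321 CPM on the right, and with IFN-alpha-pMC at 3.06, 1.92 and 0.435 CPM on the left and 7.4, 2.99 and 3.44 CPM on the right. Left control 1 was the highest of all 18 libraries, and the difference between left IFN-alpha-pMC and left control was -0.82 ± 1.1 (adjusted p = 0.586). Without left control 1 it was 3.2. Tnni1, the slow I subunit, was at 4.97, 0.134 and 0.167 CPM in left and 3.2, 0.174 and 0.375 CPM in right controls. The pMC libraries gave 0.086, 0.377 and 0.174 CPM on the left and 0.166, 1.2 and 0.375 CPM on the right. The IFN-alpha-pMC libraries gave 4.52, 1.72 and 0.38 CPM on the left and 5.82, 2.63 and 3.28 CPM on the right. Right control 1 and left control 1 lay within the range of the IFN-alpha-pMC libraries, and no comparison of Tnnt1 or Tnni1 passed the test.

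The C subunits were almost unread, in contrast to their partners. Tnnc2, the fast calcium sensor, had 1 count in all 18 libraries, in right IFN-alpha-pMC 3, where Tnnt3 was at 315 CPM. Tnnc1, the C subunit of slow and heart muscle, was at 0, 0 and 0.056 CPM in left and 0, 0 and 0.188 CPM in right controls and at 0, 0 and 0 CPM in left and 0, 0 and 0 CPM in right pMC. In IFN-alpha-pMC tumours Tnnc1 was at 0, 0 and 0 CPM on the left and 0, 0 and 0.039 CPM on the right. In the GENCODE M21 annotation 74.0% of the exon length of Tnnc2 overlaps Ube2c on the opposite strand, and Tnnc1 overlaps no other gene. Whether overlap accounts for the missing counts was not tested, and a level for Tnnc2 or Tnnc1 cannot be given from these counts. Smaller overlaps with a gene on the opposite strand were present for Atp2a1 (21.9% of exon length), Ckm (15.5%), Myh1 (8.1%) and Casq1 (8.0%), and the strand setting of the counting is not given in the sources used here.

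Z disc genes anchor the thin filaments. Tcap, which encodes telethonin, the cap of titin, rose from 2.7, 0.218 and 0.813 CPM in right controls and 0.553, 3.12 and 0.749 CPM in right pMC to 37, 39.8 and 60.4 CPM in right IFN-alpha-pMC. The groups did not overlap (5.18 ± 1.12, adjusted p = 0.00504 against control, and 4.92 ± 1.1, adjusted p = 0.00664 against pMC). On the left it was at 6.94, 0 and 0.279 CPM in controls, 0, 1.44 and 0.567 CPM with pMC and 16.5, 15 and 11.4 CPM with IFN-alpha-pMC, and passed against pMC (4.52 ± 1.17, adjusted p = 0.043) but not against control (2.54 ± 1.01, adjusted p = 0.0947).

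Ky, which encodes the kyphoscoliosis peptidase of the Z disc region, was at 0, 0.067 and 0.112 CPM in left and 0, 0 and 0 CPM in right controls. On the left it was at 0, 0.063 and 0.044 CPM with pMC and 0.306, 0.246 and 0.109 CPM with IFN-alpha-pMC. On the right, Ky was at 0, 0.048 and 0.107 CPM with pMC and 0.605, 0.838 and 2.45 CPM with IFN-alpha-pMC. It had 89 counts over the 3 right IFN-alpha-pMC libraries and 0 over the right controls, at least 27.8-fold higher (adjusted p = 0.000441), a call that ended when only these 2 groups were fitted. Against right pMC, with 3 counts, the ratio was 27.7 (exact 95% interval 9.17 to 137). In left IFN-alpha-pMC it had 11 counts, against 3 in left controls (ratio 3.25, interval 0.859 to 18.1), a difference within counting error.

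The calsarcins Myoz1 (fast) and Myoz2 (slow) tether calcineurin to the Z disc. Myoz1 rose from 2.99, 0 and 0.558 to 29.3, 20.2 and 14.3 CPM between left control and left IFN-alpha-pMC (4.12 ± 0.98, adjusted p = 0.0301) and from 8.69, 0.218 and 3.94 to 29.7, 48.5 and 46.7 CPM on the right (3.28 ± 0.89, adjusted p = 0.0233). Myoz2 was at 5.82, 4.23 and 1.25 CPM in left IFN-alpha-pMC and 0, 0.126 and 0 CPM in left pMC, which is 185 counts against 2 (ratio 104, interval 28.4 to 866). In left control 1, however, it was at 2.71 CPM, and left IFN-alpha-pMC against left control was 1.93 ± 1.05 (adjusted p = 0.187). Smpx, a small protein of striated muscle, was at 1.52, 0 and 0.112 CPM in left controls, 0, 0.439 and 0.392 CPM in left pMC and 26.8, 10.4 and 5 CPM in left IFN-alpha-pMC (4.62 ± 1.15, adjusted p = 0.035 against control). Myot, which encodes myotilin, rose from 0.719, 0.864 and 0.749 to 16, 15.5 and 31 CPM between right pMC and right IFN-alpha-pMC (4.73 ± 1.18, adjusted p = 0.0139). The fast alpha-actinin Actn3 and Actn2, the alpha-actinin of all fibres, both passed against right pMC (4.05 ± 1.11 and 3.19 ± 0.97) and not against right control (2.79 ± 1.04 and 1.86 ± 0.89).

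Genes of the triad and of calcium handling included Casq1, called in 5 comparisons, as was Pgam2. Casq1, the calsequestrin that binds calcium inside the store of fast fibres, was at 4.52, 2.62 and 3.46 CPM in left and 10.8, 1.92 and 5.82 CPM in right controls. With pMC it was at 3.05, 4.89 and 3.31 CPM on the left and 4.09, 6.57 and 3.91 CPM on the right, and with IFN-alpha-pMC at 17.9, 25.2 and 19.4 CPM on the left and 45.8, 56 and 91.4 CPM on the right. Every IFN-alpha-pMC library was above all 12 others, and every right one above every left one. The difference passed in 5 comparisons: 3.38 ± 0.45 against right control (adjusted p = 8.95e-05), 3.72 ± 0.46 against right pMC (adjusted p = 5.45e-05), 2.56 ± 0.45 and 2.49 ± 0.45 against left control and left pMC (adjusted p = 0.00819 and 0.0105), and 1.63 ± 0.42 for right against left IFN-alpha-pMC (adjusted p = 0.0495). Casq1 kept its call against right control and right pMC with each library left out, and lost it against left control without left control 2 or 3, and against left pMC without left pMC 1 or 3 or left IFN-alpha-pMC 2.

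Atp2a1, the calcium pump of fast fibres, was at 29.3, 1.81 and 4.13 CPM in left and 88.9, 3.1 and 12.8 CPM in right controls. The pMC libraries gave 0.859, 11.6 and 8.67 CPM on the left and 5.37, 18.6 and 11.6 CPM on the right. The IFN-alpha-pMC libraries gave 66.2, 76.5 and 48.3 CPM on the left and 113, 130.5 and 342 CPM on the right. Right control 1 lay above all 3 left IFN-alpha-pMC libraries and below all 3 right ones. The gene passed against right pMC (4.04 ± 1.14, adjusted p = 0.0312) and not against right control (2.48 ± 1.06, adjusted p = 0.159). Pvalb, the parvalbumin that buffers calcium in fast fibres, was at 8.36, 0.134 and 2.45 CPM in left and 67.6, 0.96 and 20.8 CPM in right controls and at 0.086, 9.73 and 9.2 CPM in left and 3.04, 15 and 16 CPM in right pMC. In IFN-alpha-pMC tumours Pvalb was at 203, 103 and 77.1 CPM on the left and 189, 289.8 and 266 CPM on the right. Left and right IFN-alpha-pMC overlapped, all 6 above the other 12. Its differences were 5.11 ± 1.32 against left control (adjusted p = 0.0392) and 4.45 ± 1.26 against right pMC (adjusted p = 0.0305).

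Ryr1, the channel that releases calcium from the store, was at 8.24, 3.42 and 3.18 CPM in left and 20.3, 4.49 and 4 CPM in right controls. On the left it was at 3.61, 3.77 and 2.62 CPM with pMC and 11.3, 6.34 and 5.05 CPM with IFN-alpha-pMC. On the right, Ryr1 was at 3.37, 6.28 and 4.23 CPM with pMC and 11.1, 10.2 and 53 CPM with IFN-alpha-pMC. Right IFN-alpha-pMC 3 and right control 1 stood above the other 16 libraries, which ran from 2.62 to 11.3 CPM. Against right pMC it was 2.42 ± 0.68 (adjusted p = 0.0298), a call that ended without right IFN-alpha-pMC 3 and without any 1 of the right pMC libraries. Against right controls the value turned to -0.26 without the 3 libraries that stood apart. Cacna1s, the voltage sensor that opens Ryr1, moved by 2.99 ± 0.86 against right pMC (adjusted p = 0.0331).

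The smaller partners of these channels gave some of the largest ratios at low counts. Cacng6, a gamma subunit of calcium channels, was at 0.137, 0 and 0 CPM in right controls, 0, 0.048 and 0 CPM in right pMC and 0.651, 1.02 and 1.94 CPM in right IFN-alpha-pMC. That is 80 counts against 3 (ratio 25, exact interval 8.26 to 124) and against 1 (ratio 74.7, interval 13 to 2986). Jph1, the junctophilin that holds the triad membranes together, was at 0.282, 0 and 0.112 CPM in left controls, 0 in all 3 left pMC libraries and 1.45, 2.31 and 0.706 CPM in left IFN-alpha-pMC, at least 29.6-fold above left pMC. Cacng1, Trdn (triadin) and Jsrp1 passed against right control as well (2.72 ± 0.83, 3.81 ± 0.99 and 3.1 ± 0.68).

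Of the metabolic genes, Ckm and Mb were near 0 in several libraries and the glycolytic enzymes in none. Ckm, the creatine kinase of muscle, was at 18.1, 0.336 and 1.95 CPM in left and 71, 1.22 and 20.6 CPM in right controls. With pMC it was at 0.301, 5.96 and 5.27 CPM on the left and 5.25, 9.79 and 8.46 CPM on the right, and with IFN-alpha-pMC at 84.4, 75.6 and 57.2 CPM on the left and 146, 190.1 and 228 CPM on the right. It was lowest in left pMC 1 and left control 2 and did not overlap between right IFN-alpha-pMC and any other group. Against right pMC it was 4.58 ± 1.19 (adjusted p = 0.0184), and against right control 2.6 ± 1.08 (adjusted p = 0.143). Mb, the oxygen-binding myoglobin, was at 18.7, 0 and 0.056 CPM in left and 21.5, 0.174 and 0.563 CPM in right controls. The pMC libraries gave 0.043, 0.879 and 0.479 CPM on the left and 1.33, 1.97 and 0.054 CPM on the right. The IFN-alpha-pMC libraries gave 25.7, 26.4 and 8.7 CPM on the left and 38.1, 25.3 and 49.2 CPM on the right. The other 4 controls were at 0.563 CPM or less, far under left control 1 and right control 1, and Mb passed in no comparison (5.05 ± 1.62, adjusted p = 0.06 against right pMC).

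The glycolytic enzymes were read in all 18 libraries. Eno3, the muscle enolase, was at 38.8, 29 and 53.4 CPM in right controls, 37.7, 59.5 and 58.7 CPM in right pMC and 93.8, 127 and 124 CPM in right IFN-alpha-pMC (1.51 ± 0.26, adjusted p = 0.000778 against control). In left control 2, where Acta1 was at 0.805 CPM, Eno3 was at 44.2 CPM. Its spread within groups was small and its SE 0.26. Pygm, the glycogen phosphorylase of muscle, rose from 20.2 ± 11.7 CPM (SD, n = 3) in right controls to 82.1 ± 46.6 CPM (2.02 ± 0.41, adjusted p = 0.00321), and Pgam2, the muscle phosphoglycerate mutase, from 7.38 ± 3.32 to 30.7 ± 5.48 CPM (2.06 ± 0.3, adjusted p = 0.000178). Both were also higher on the right than on the left with IFN-alpha-pMC (1.8 ± 0.41 and 1.15 ± 0.29, adjusted p = 0.0235 and 0.0453). Ampd1, the AMP deaminase of muscle, rose by 3.95 ± 0.61 against right control and 2.99 ± 0.63 against left control (adjusted p = 0.000328 and 0.0178).

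The other 4 genes had low counts or no clear place in the sarcomere. Lrrc30, a leucine-rich repeat gene, was at 0, 0 and 0.063 CPM in right controls, 0, 0.048 and 0 CPM in right pMC and 0.977, 1.38 and 1.15 CPM in right IFN-alpha-pMC, which is 73 counts against 1 in each of the former groups (ratios of 68.5 and 68.1). In left tumours Lrrc30 was at 0.536, 0.639 and 0.38 CPM with IFN-alpha-pMC, 27 counts against 1 in control (ratio 23.9, exact interval 3.94 to 980). Mylk4, of the myosin light chain kinase family, rose from 0.183, 0.044 and 0 to 2.28, 2.63 and 6.71 CPM (5.48 ± 0.86, adjusted p = 0.000375). Yipf7 was at 0.046, 0.044 and 0.063 CPM in right controls and 1.63, 1.32 and 2.21 CPM in right IFN-alpha-pMC. It had 113 counts against 3 there (ratio 35.3, interval 11.8 to 174) and 60 against 0 between left IFN-alpha-pMC and left pMC, at least 22.5-fold higher. The Yipf7 call against left pMC held with each library left out. Asb5, an ankyrin repeat gene, was at 19.3, 0.218 and 1.25 CPM in right controls and 7.3, 9.22 and 8.1 CPM in right IFN-alpha-pMC, so that right control 1 was the highest of all 18 libraries for this gene (0.23 ± 1.03, adjusted p = 0.93). In left tumours it was at 0.043, 0.377 and 0.218 CPM with pMC and 15.9, 9.63 and 2.45 CPM with IFN-alpha-pMC (5.51 ± 1.45, adjusted p = 0.046), a call that ended with any 1 of the 6 libraries left out.

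Between right IFN-alpha-pMC and right control, 18 of the 45 tested genes passed the test as higher and none as lower, where 8.78% of all 14849 genes tested were called higher and 2.01% lower. The median of the 45 was 2.72 (range 0.20 to 7.67) against -0.03 over all genes. The top of that range was Ky, with 0 counts in right controls, where the counts give only a rise of at least 27.8-fold. The genes called were Myl1, Myom2, Myoz1, Tcap, Ky, Casq1, Cacng1, Cacng6, Trdn, Jph1, Jsrp1, Eno3, Pygm, Pgam2, Ampd1, Lrrc30, Mylk4 and Yipf7. By role they were 2 of 12 filament genes, 0 of 4 troponins, 3 of 9 Z disc genes, 6 of 10 triad genes, 4 of 6 metabolic genes and 3 of the other 4. For 35 genes all 3 right IFN-alpha-pMC libraries lay above all 3 controls, against 13.3% of all genes. The 10 that overlapped were Myh1, Myh2, Mybpc1, Ttn, Neb, Tnnt1, Tnni1, Actn2, Ryr1 and Asb5, and in each of them right control 1 was the highest control. Without right control 1 the count called was 33, with 7.25% of all genes called in either direction. Without the 3 libraries that stood apart it was again 18, but 54.4% of all genes were then called in either direction, against 10.8% with all libraries, so that the 18 of 45 lay below the share of all genes. When only these 2 groups were fitted it was 9, with 4.04% of all genes called.

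Against right pMC, the cells without the IFN-alpha label, 33 of 45 genes were higher and none lower (8.88% of all genes were called higher and 1.21% lower), with a median of 3.92 (range 1.14 to 5.68). They included 5 of 12 filament genes, 2 of 4 troponins, 8 of 9 Z disc genes, all 10 triad genes and 5 of 6 metabolic genes. In all 45 the 3 right IFN-alpha-pMC libraries lay above the 3 right pMC libraries, against 16.2% of all genes. The right pMC libraries were closer to each other than the right controls were. Leaving out right pMC 1, 2 or 3 reduced the count to 14, 21 or 16, with 6.79, 6.93 and 8.22% of all genes called. Among the genes with values above, the calls of Ckm, Tnnt3, Myot, Mylpf, Tnni2, Pvalb and Atp2a1 each ended without any 1 of the 3 right pMC libraries. Those of Mylpf, Tnni2 and Pvalb also ended without right IFN-alpha-pMC 2, and that of Atp2a1 without right IFN-alpha-pMC 3. Those of Casq1, Ky, Cacng6, Lrrc30 and Tcap held with each library left out. Ky, Cacng6 and Lrrc30 had only 3, 1 and 1 counts in right pMC, and could pass the filter through the IFN-alpha-pMC groups. The count of genes called was 34 without the 3 libraries that stood apart. The share of all genes called in either direction then went from 10.1% to 28.5%.

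In the distant tumour Casq1, Myl1 and the other calls below stood higher with IFN-alpha-pMC, at levels mostly under those of the injected side. Between left IFN-alpha-pMC and left control 14 of 45 were called higher and none lower (4.05% of all genes were called higher and 2.6% lower), with a median of 2.59 (range -0.82 to 5.11) against 0.07 over all genes. The calls were Myl1, Mylpf, Myoz1, Smpx, Casq1, Jph1, Jsrp1, Pvalb, Eno3, Pgam2, Ampd1, Lrrc30, Mylk4 and Yipf7. All 3 left IFN-alpha-pMC libraries were above all 3 left controls for 33 genes, against 25.8% of all genes. The count depended on single libraries and was 9, 0 and 1 without left control 1, 2 and 3, and 5 and 2 without left IFN-alpha-pMC 1 and 2. In these 5 fits 0.569 to 2.61% of all genes were called. It was 23 with the 3 libraries that stood apart removed, and the share of all genes called in either direction went from 6.65% to 28.8%. The calls of Mylpf, Smpx, Myoz1, Myl1 and Pvalb against left control each ended without left control 2 or 3 or left IFN-alpha-pMC 1 or 2. Those of Myl1 and Pvalb also ended without left control 1. The Lrrc30 call ended without left control 1 or 2 or left IFN-alpha-pMC 2, and that of Yipf7 without left control 2 or 3. Against left pMC 20 of 45 were called higher and none lower (2.71% and 1.14% of all genes), with a median of 3.96, and 44 did not overlap (21.3% of all genes), Ttn being the exception. With any 1 of the 6 libraries left out that count was 1, 2 or 1 without left pMC 1, 2 or 3 and 8, 1 or 11 without left IFN-alpha-pMC 1, 2 or 3, with 0.219 to 2.74% of all genes called. It was 32 with the 3 libraries that stood apart removed, and the share of all genes called went from 3.85% to 27.6%. The calls of Mylpf, Myoz2, Smpx and Jph1 against left pMC each ended without any 1 left pMC library or without left IFN-alpha-pMC 2. Those of Mylpf, Myoz2 and Smpx also ended without left IFN-alpha-pMC 1. The comparisons with control and with pMC share the IFN-alpha-pMC libraries, so their counts are not independent of each other.

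**Figure D3:**
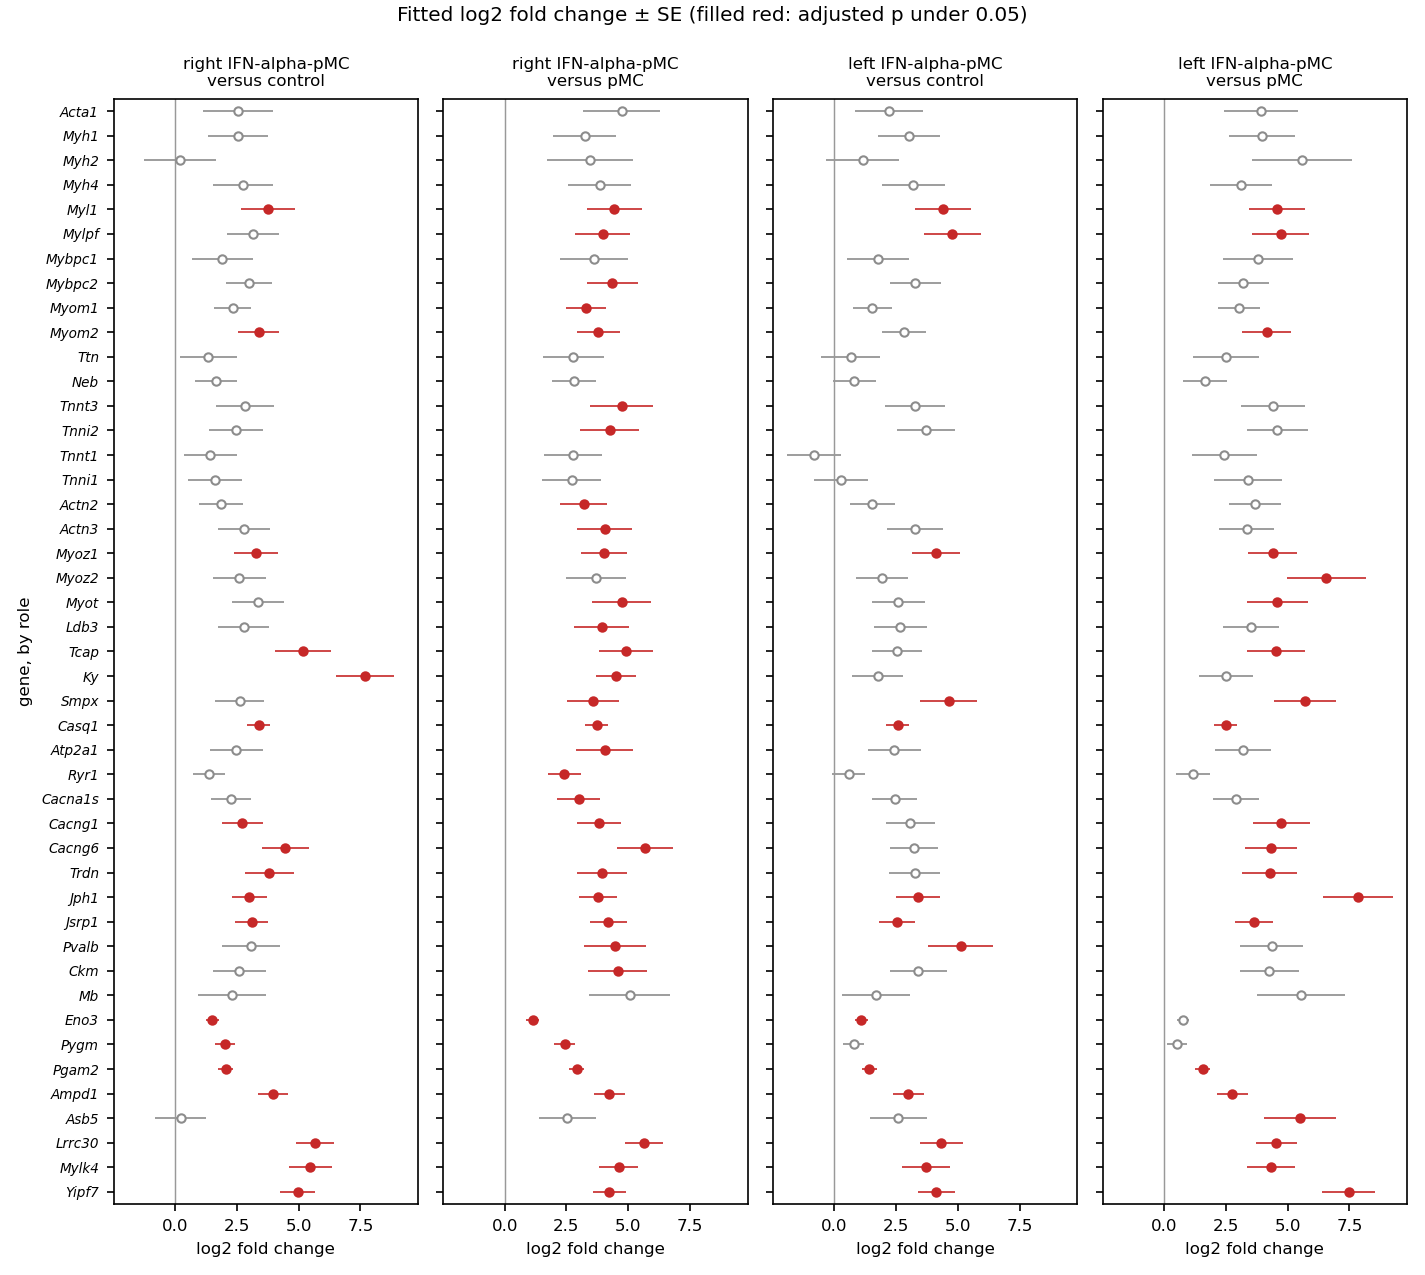
Fitted log2 fold change ± SE of each of the 45 tested genes, ordered by role, in 4 comparisons (IFN-alpha-pMC against control and against pMC, right and left), with red filled points where the adjusted p of edgeR's test is under 0.05 (18, 33, 14 and 20 genes) and open grey points elsewhere. Nearly all points lie right of 0. Long SE bars occur on open and on filled points. Eno3, Pygm, Pgam2 and Casq1 have short ones, though Pygm is open in both left panels.

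Injection of pMC without the IFN-alpha label was followed by no call among these genes. Against right control 0 of 45 passed by edgeR (0% of all genes were called), 1 had an unadjusted p under 0.05 and DESeq2 called 0, with a median of -1.09. Against left control 0 passed (0% of all genes), 6 had an unadjusted p under 0.05 and DESeq2 called 0, with a median of -0.92. With only the compared groups fitted, 35 of these genes passed the filter on the right and 27 on the left. Of these 0 were called on either side (0% and 0.00725% of all genes). Ky and Lrrc30 had at most 3 counts in each of these groups, so their lack of a call cannot speak to a change. In neither comparison did a gene have all 3 pMC libraries above all 3 controls (1.68% and 9.7% of all genes did). The reverse order, all 3 pMC libraries below all 3 controls, was not counted. Both medians lay below 0, so this count cannot speak to a fall. In right pMC Ckm was at 5.25, 9.79 and 8.46 CPM, between right control 2 (1.22 CPM) and right controls 1 and 3 (71 and 20.6 CPM).

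Right tumours stood above left ones in the median of every treatment: by 0.86 in controls, 1.2 with pMC and 1.31 with IFN-alpha-pMC. In controls 0 of 45 genes were called (0% of all genes; 4 with an unadjusted p under 0.05, DESeq2 0) and none had all right above all left libraries (0.95% of all genes). With pMC 0 were called (0%; 3 unadjusted, DESeq2 0) and 7 did not overlap (9.72% of all genes). With IFN-alpha-pMC 3 were called, Casq1, Pygm and Pgam2 (2.49% of all genes were called higher and 0.0404% lower), and 26 did not overlap (10.5%). That count of 3 was 0 without right IFN-alpha-pMC 3 and also without any 1 left IFN-alpha-pMC library, and 1 without right IFN-alpha-pMC 2. The test of the difference itself, the right effect of IFN-alpha-pMC minus the left, called 0 of 45 against control by edgeR (0% of all genes; 2 unadjusted, DESeq2 0, median 0.42) and 0 against pMC (0.377% of all genes were called higher and 0.0135% lower; 2 unadjusted, DESeq2 0, median 0.26).

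Fast isoforms outweighed slow ones in every library. Counted over 14 fast genes (such as Myh4, Tnnt3 and Pvalb) and 5 slow genes (Tnnt1, Tnni1, Tnnc1, Mybpc1 and Myoz2), the slow share was 1.7 ± 0.6% (SD, n = 3) in right IFN-alpha-pMC and 2.56 ± 0.97% in left IFN-alpha-pMC. It was 2.76 ± 0.8% in right and 7.9 ± 6.63% in left controls, and 3.04 ± 1.07% and 4.61 ± 2.9% with pMC. Per library, right IFN-alpha-pMC was at 2.24, 1.05 and 1.81% and right control at 3.69, 2.25 and 2.35%. The 2 groups met at 2.24 and 2.25%. Mybpc1 gave 337, 232 and 1255 of the 756, 366 and 1484 slow counts in right IFN-alpha-pMC 1, 2 and 3. The share thus rested largely on this gene, and Myh7, Myl2 and Myl3 were not counted in it. With shorter lists the means were 0.54% and 0.47% in right and left IFN-alpha-pMC, and 1.31% and 5.05% in right and left controls. The highest slow share was in left control 1 at 15.51% (Wilson 95% interval 14.35 to 16.73%), and the next, left pMC 1 at 7.78%, rested on 13 slow counts (interval 4.61 to 12.86%). Among the tested slow genes 0 of 4 passed against right control (1 with an unadjusted p under 0.05) and 0 of 4 against right pMC (4 unadjusted). Of the fast genes 3 of 13 and 10 of 13 passed, where 8.78% and 8.88% of all genes were called higher. Against right pMC the medians were 3.2 for slow and 4.04 for fast genes. On the left 0 of 4 slow and 5 of 13 fast genes passed against control (4.05% of all genes). Against left pMC 1 of 4 slow genes (Myoz2) and 4 of 13 fast genes passed (2.71%). A difference between fast and slow genes was not tested.

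The myosin heavy chains show the same make-up in finer steps. In right IFN-alpha-pMC 1, 2 and 3 Myh4 held 90.4, 91.1 and 86.5% of the counts of Myh4, Myh1, Myh2 and Myh7 (the heavy chain of slow fibres), with 95% intervals within 1 percentage point of each value. In left IFN-alpha-pMC it held 51.5, 66.8 and 84.3%, with Myh1 at 37.9, 26.7 and 13.8%. Left control 1 was unlike all others: Myh4 held 32.7%, Myh1 18.7%, Myh2 19.9% and Myh7 28.7% of 1059 counts (interval of Myh7 26.06 to 31.5%). In right control 1, with 4226 counts, Myh4 held 79.2% and Myh7 2.1%. Of genes particular to slow fibres, Myh7, Myl2 and Myl3 together reached 47.4 CPM in left control 1, 31.1 in right control 1, 29.8 in right IFN-alpha-pMC 1 and 11.3 in left IFN-alpha-pMC 1, and 0.067 to 7.42 CPM in the other 14 libraries. In each of these 4 groups library 1 held the most. Pairs that align to more than 1 place are not in these counts, so the similar heavy chain genes may be undercounted unequally.

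**Figure D4:**
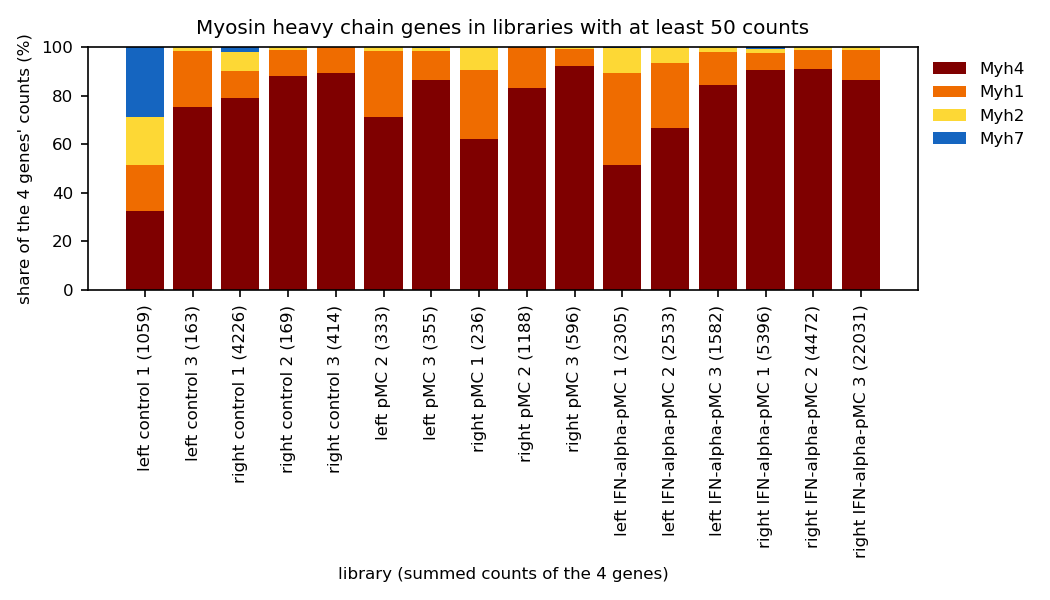
Share of Myh4, Myh1, Myh2 and Myh7 in their summed counts, as stacked bars to 100%, for the 16 libraries with at least 50 such counts (summed counts in brackets). Myh4 is the largest part of every bar and lowest in left control 1 (32.7%), where Myh7 holds 28.7%, and in left IFN-alpha-pMC 1 (51.5%).

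Within a group the genes moved together from library to library. Library 1 was the highest of its group for 42 of 45 genes in left controls and for 42 in right controls. Library 2 was highest for 36 in left pMC and 38 in right pMC, library 3 for 35 in right IFN-alpha-pMC and library 1 for 26 in left IFN-alpha-pMC. With group means taken out, the log2 level of Trdn followed the mean of the other genes most closely (Pearson r = 0.983 over 18 libraries), then Mybpc1 (0.98), Atp2a1 and Ldb3 (both 0.978). The weakest were Pygm (0.557), Yipf7 (0.543), Eno3 (0.354), Ky (0.118) and Lrrc30 (0.1), of which Ky, Lrrc30 and Yipf7 have few counts. These r describe the libraries, which share their depth and scaling across genes. The genes outside the 47 that followed their mean most closely were Tpm2 (0.982), a beta-tropomyosin, Xirp2 (0.972), Eef1a2 (0.958), Pdlim3 (0.954), Cap2 and Trim72 (both 0.95), Sypl2 and Fhl1 (both 0.949), Klhl40 (0.945) and Flnc (0.944).

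The length of a gene's transcript went with its rank within right IFN-alpha-pMC. In library 3, genes of 5000 exon bases or more (13 genes) stood a median of 1.64 log2 units above the mean of libraries 1 and 2, and genes under 2000 bases (17 genes) 0.56. The ratio of library 3 to the mean of the others was 5.47 for Ttn, 5.03 for Neb, 4.96 for Ryr1 and 2.92 for Myom1, and 0.95 for Mylpf, 1.11 for Pvalb and 1.09 for Tnni2. Across the 45 genes the Spearman rho of this difference with exon length was 0.71. Across all 14395 genes with a length it was 0.50, so the trend was not particular to muscle genes. In right IFN-alpha-pMC 2 rho was -0.71 (all genes -0.51) and in right IFN-alpha-pMC 1 -0.50 (all genes -0.32). Each library was set against the other 2 of its group, so a rise in 1 library lowers the differences of the others. These negative values are thus not separate from the trend in library 3. In right control 3 rho was -0.50 (all genes -0.50) and in right control 2 0.23 (all genes 0.49). In right control 1, which held the most muscle RNA of the controls, it was 0.07 (all genes 0.24). Genes are not independent replicates, and the values of 1 library share its depth. The part of this trend in the levels of Ttn, Neb and Ryr1 in right IFN-alpha-pMC 3 was not tested.

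**Figure D5:**
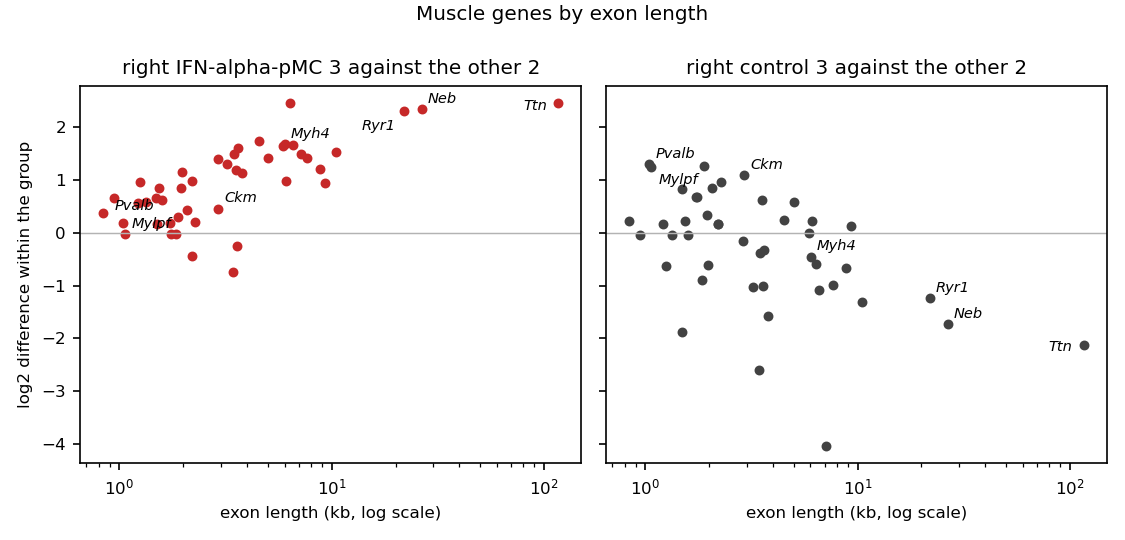
Log2 difference of each of the 45 tested genes between 1 library and the other 2 of its group, against exon length in kilobases on a log axis, for right IFN-alpha-pMC 3 and right control 3. Long genes such as Ttn, Neb and Ryr1 lie above short ones in the first panel (rho = 0.71) and below them in the second (rho = -0.50).

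Other genes of the muscle fibre, from lists written with the earlier results known, followed in part. Against right control 6 of 10 further triad genes (Stac3, Jph2, Srl, Sypl2, Hrc and Clcn1), 6 of 14 further sarcomere genes (Tmod4, Lmod2, Lmod3, Klhl41, Cmya5 and Myoz3) and 4 of 10 further metabolic genes (Phkg1, Adssl1, Ppp1r3a and Fabp3) were higher and none was lower, where 8.78% of all genes were called higher. Hrc, a calcium-binding protein of the store, was at 4.28, 6.1 and 16.6 CPM in right IFN-alpha-pMC and 1.006, 0.305 and 0.375 CPM in right control (3.97 ± 0.75, adjusted p = 0.00173). Srl, which encodes sarcalumenin, was at 23.2, 30.8 and 54.5 CPM against 16.1, 13.7 and 8.44 CPM (1.5 ± 0.29, adjusted p = 0.00198). Against right pMC the counts were 7 of 10, 7 of 14 and 7 of 10, where 8.88% of all genes were called higher. None of 4 further slow fibre genes passed in either comparison (0 and 2 with an unadjusted p under 0.05), and none of 4 tested genes of the neuromuscular junction did (0 and 2 unadjusted). On the left 1 of these 42 genes passed against control (Myoz3), a share no higher than the 4.05% of all genes called higher. Against left pMC 6 passed (Sypl2, Ppp1r3a, Xirp2, Tmod4, Klhl41 and Klhl40), where 2.71% of all genes were called higher.

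Genes of muscle stem cells and of developing or regenerating fibres passed in none of these 4 comparisons (0 of 7 tested by edgeR, with 1 or 2 at an unadjusted p under 0.05 in each). Myog, a factor of differentiating myoblasts, was at 13.5, 0 and 0.125 CPM in right controls and 0.977, 1.79 and 4.15 CPM in right IFN-alpha-pMC, so right control 1 was the highest of all 18. Pax7 and Myf5, which mark satellite cells, had at most 0.158 CPM in any library. The summed level of the 12 developmental genes was 34.8 CPM in right control 1 and 38.2 CPM in right IFN-alpha-pMC 3, and 4.31 to 19.96 CPM in the others.

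Markers of other cells in a hindlimb sample were read as well. Of the 7 cardiac markers Myl7 was at 0 in all libraries, and the summed level was 5.16 to 13.39 CPM in right IFN-alpha-pMC against 0.74 to 1.92 CPM in right control. Part of it was Actc1, the cardiac actin that developing skeletal muscle also makes, at 3.81, 5.8 and 10.4 CPM against 1.37, 0.044 and 0.25 CPM (3.55 ± 0.95, adjusted p = 0.0222). The 5 smooth muscle markers summed to 33.75 to 49.25 CPM in right IFN-alpha-pMC and 45.83 to 61.22 CPM in right control, and none of 4 tested passed (1 with an unadjusted p under 0.05). On the left 1 of them, Smtn, was lower in IFN-alpha-pMC than in control. The 5 adipocyte markers gave 19.31 to 36.38 CPM against 26.87 to 55.28 CPM, the 6 markers of tendon and nerve sheath 6.91 to 8.92 CPM against 3 to 6.46 CPM, and the 4 keratinocyte markers at most 0.28 CPM anywhere, with Krt5 at 0. The 5 genes of red blood cells summed to 18.13 to 73.85 CPM in right IFN-alpha-pMC, 69.14 to 500.80 CPM in right control and 45.05 to 150.26 CPM in left control. Against right control all 5 were lower by the test, where 2.01% of all genes were called lower. Against right pMC 2 of 5 were lower (1.21% of all genes). On the left 0 of 5 passed against control (2.6% of all genes were called lower) or against pMC (1.14%), with 0 and 5 at an unadjusted p under 0.05. The part of any of these cells in the muscle signal was not tested.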

How the data were processed

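The 18 libraries were made with a stranded mRNA kit, per the labels' protocols. The authors deposited raw whole-number counts, 1 table per library, of the read pairs in each Ensembl gene. The submitters' processing notes name HTSeq 0.10.0, HISAT2 2.1.0, DESeq2 1.20.0, Trimmomatic 0.36, CASAVA 1.8.2, FastQC and bcl2fastq, and build mm9. Neither the strand setting nor the annotation release is given in the sources used here. Pairs that aligned to several places or to no gene (no-feature pairs 4.04 to 12.21%) have their own entries, which were kept out of totals and tests. Symbols and exon lengths came from GENCODE M21 (GRCm38) by gene ID and matched 32897 of 37620 IDs.

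Genes were kept by edgeR's filterByExpr and tested with edgeR 4.0.16 in R 4.3.3 (TMM, quasi-likelihood F test, 6 group means over 18 libraries, 12 residual degrees of freedom). P-values are two-sided and Benjamini-Hochberg adjusted over 14849 genes, with a threshold of 0.05. The biological coefficient of variation was 23.7%. SE is the log2 fold change divided by the square root of F. CPM were scaled by TMM, and shares used raw totals. DESeq2 1.42.0, other scalings, no filter, other sample sets, a replicate block and left-out libraries were run as alternatives. The test was checked on simulated counts.

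The 47 genes, the other gene lists and the tests were chosen with earlier results of these data known. Values per library are printed for 17 genes fixed by name and for up to 5 further members with the largest change among those called in each comparison of IFN-alpha-pMC. The 10 other genes with the highest centred correlation are named as most alike. Low-count ratios use exact intervals, and intervals cover counting error only.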

Additional observations from a re-analysis of the deposited data

How the results depend on the processing

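Counts of muscle fibre genes called are given with the share of all genes called in either direction in the same fit. For right IFN-alpha-pMC against control the count of 18 (10.8% of all genes) became 9 (4.04%) in the compared groups only. For right pMC against control the count of 0 (0%) became 2 without the 3 libraries that stood apart, 1 higher and 1 lower, where 33.7% of all genes were called, a share far above that of the members. For left IFN-alpha-pMC against control the 14 calls (6.65%) became 22 (5.19%) with no low-count filter, 23 (28.8%) without the 3 libraries and 22 (22%) in the compared groups only. For left IFN-alpha-pMC against left pMC the 20 calls (3.85%) became 32 (3.2%) with no filter, 32 (27.6%) without the 3 libraries, 37 (18%) in the compared groups only and 33 (13.5%) by DESeq2. For right against left IFN-alpha-pMC the 3 calls (2.53%) became 1 (2.32%) with relative log expression factors, 0 (5.75%) without the 3 libraries and 5 (1.33%) in the compared groups only. The cause was not tested. By DESeq2 right IFN-alpha-pMC gave 17 calls against control (11.9% of all genes) and 35 against pMC (10.3%).

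With any 1 library left out the counts ran from 14 to 33 for right IFN-alpha-pMC against control and 14 to 32 against right pMC. For left IFN-alpha-pMC they ran from 0 to 12 against control and 1 to 11 against pMC. Right against left IFN-alpha-pMC gave 0 to 4. The share of all genes called moved as well. It was 7.25% at the count of 33, and 6.79% at the count of 14 against right pMC. It was 0.747% at the count of 0 against left control, and 0.219 to 2.74% over the fits against left pMC. For right against left IFN-alpha-pMC it was 0.933 to 1.54% at the counts of 0. With 1 library left out, the share of counts of the 47 genes ran from 0.0099 to 0.0343% in left and 0.0201 to 0.0932% in right controls. With pMC it ran from 0.0131 to 0.0213% on the left and 0.0217 to 0.0323% on the right. With IFN-alpha-pMC it ran from 0.134 to 0.1648% on the left and 0.3057 to 0.4752% on the right. Without the 3 genes with the most counts the share in left IFN-alpha-pMC was 0.0918%. The slow share with 1 library left out ran from 4.1 to 10.16% and 2.3 to 3.02% in left and right controls, 3.02 to 5.86% and 2.43 to 3.44% with pMC, and 2.16 to 3.1% and 1.43 to 2.03% with IFN-alpha-pMC. With shorter lists it was 1.31% in right control, 1.16% in right pMC, 0.47% in left and 0.54% in right IFN-alpha-pMC, and with counts divided by gene length 1.71, 1.72, 1.07 and 0.87%.

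Without the 3 libraries that stood apart the difference from right control turned negative for Myh2 (-1.08), Ryr1 (-0.26) and Ttn (-0.52), and that from left control for Tnni1 (-0.75) and Ttn (-0.29). With 1 library left out, the difference of Myh2 from right control ran from -0.53 to 6.62, below 0 without right control 2 (-0.41), right control 3 (-0.37) or right IFN-alpha-pMC 3. That of Ttn ran from -0.04 (without right IFN-alpha-pMC 3) to 3.95. From left control, Tnnt1 ran from -1.4 to 3.2 (without left control 1), Tnni1 from -0.75 (without left IFN-alpha-pMC 1) to 3.73, with -0.29 and -0.3 without left control 2 and 3, and Ttn from -0.29 (without left IFN-alpha-pMC 1) to 2.97. None of these passed the test in the fit of all libraries. Of the values of single genes under the settings that leave out no single library, 512 kept direction and side of the threshold, 55 passed it anew, 8 no longer passed and 5 reversed. With 1 library left out 405 kept both, 86 no longer passed, 9 reversed and 4 passed anew.

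With the replicate block the counts were 20 (9.66% of all genes) and 31 (9.58%) for right IFN-alpha-pMC against control and pMC, 9 (3.12%) and 12 (2.36%) for left IFN-alpha-pMC against control and pMC, and 7 (3.09%) for right against left IFN-alpha-pMC. Of the calls named for their values, those of Atp2a1 and Pvalb against right pMC, Myl1 and Pvalb against left control, and Mylpf and Asb5 against left pMC did not pass with the block. After removal of group means, same-numbered right and left libraries correlated over all genes at 0.6, 0.12 and -0.02 in controls, 0.1, 0.01 and 0.13 with pMC and 0.3, -0.25 and 0.44 with IFN-alpha-pMC. Over the muscle fibre genes alone these values were 0.85, 0.76 and 0.47, then 0.32, 0.19 and 0.3, then 0.27, -0.24 and 0.19. In controls and with pMC each library thus correlated best with its own number over these genes, a hint from the data and not from the design, and with IFN-alpha-pMC this was not so. Across treatments same-numbered libraries of 1 side correlated at -0.76 to 0.37 over all genes. Since not every pair exceeded 0.1, the numbers were not taken to pair the samples, and a shared mouse cannot be told from these counts. Low depth limits Ky, Lrrc30, Yipf7, Cacng6, Tnnc1 and Tnnc2, whose levels in control and pMC libraries were near the 3-count limit.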
